A study of Mus musculus with 22 samples.

Results

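The 6 genes Plaur, Plau, Plat, Serpine2, Thbs1 and Gdf15, which belong to the extracellular protease and injury-signal repertoire, were followed across Müller glia and retinal progenitors. They were taken by gene symbol from the deposited count table, which holds 44792 genes, and all 6 passed the expression filter that left 18931 genes for testing. The Müller cells, the radial support glia of the retina, were sorted by flow cytometry from C57BL/6 mice that carry a GFP reporter under Rlbp1, a gene of retinoid handling. Young cells came from mice of 2 to 3 months, aged cells from mice of 1.5 years, and injured cells from mice of 2 to 3 months whose eyes had been injected with NMDA 2 days earlier. NMDA is a glutamate receptor agonist that kills retinal neurons by overexcitation. Retinal progenitor cells (RPCs) came from C57BL/6 embryos at embryonic day 12.5. The RNA data comprise 2 libraries of young, 3 of NMDA-treated and 2 of aged Müller cells, with 3 of RPCs. Reduced representation bisulfite sequencing (RRBS) measured DNA methylation in 3 libraries of each of the 4 groups. The labels call the samples biological replicates or replicates, without naming the animals.

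Plasminogen is a circulating zymogen that is cut to plasmin, a protease that dissolves fibrin and degrades matrix. The cut is made by urokinase (Plau), which works mainly when bound to its cell-surface receptor (Plaur), or by tissue-type activator (Plat), which is also released in nervous tissue. Serpine2, also called protease nexin-1, is a cell-bound inhibitor of thrombin, urokinase, tissue-type activator and plasmin. Thbs1 encodes thrombospondin-1, a matrix glycoprotein that binds CD36, CD47 and integrins and can activate latent TGF-beta, and Gdf15 is a secreted stress cytokine of the TGF-beta family.

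The RNA libraries held between 10149390 and 36486072 counts, and levels are given as CPM, a gene's counts scaled to its library's total. Müller markers were high in the sorted cells: Rlbp1 lay at 4240 and 3320 CPM in young, 1296, 645 and 1293 CPM in NMDA-treated and 3093 and 2796 CPM in aged cells, against 2.71 to 6.75 CPM in RPCs. Photoreceptor transcripts were present in every Müller library, with a 12-gene sum of 5873 to 14950 CPM. The young libraries listed fewer genes (13913 and 14919 with a count, against 20920 to 23618 elsewhere). Of the detected genes, those with under 10 counts made up 6.35% and 5.52% in young cells but 14.3% to 29.5% elsewhere. What this has to do with a level of 0 in young cells was not tested, so the 6 genes are compared with aged cells as well. NMDA-treated and aged cells also differ in the age of the mice, 2 to 3 months against 1.5 years. Injury and age therefore cannot be told apart in that comparison. Some genes at 0 in 1 young library were far above it in the other, such as Cx3cr1 (0 and 24.2 CPM) and Serpina3n (15.2 and 0 CPM). Over all tested genes, Pearson's r of log2 CPM was 0.83 between the 2 young libraries and 0.95 to 0.99 between library pairs of the other groups. The young level in every comparison rests on these 2 libraries. The lower bounds on fold changes given below hold only if the young zeros arose from counting alone. In such bulk samples, fewer cells of a type and less RNA per cell cannot be told apart.

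At 2 days after NMDA, 5 of the 6 genes were higher than in young Müller cells, where 30.6% of all tested genes were called higher and 14.3% lower. Against aged Müller cells 4 of 6 were higher, where 10.5% of all tested genes were higher and 9.8% lower. The uncalled gene in the first comparison was Plau, and in the second Plau and Serpine2. A call means an adjusted p under 0.05 in edgeR's quasi-likelihood fit of all 10 libraries, adjusted over all tested genes. Plaur and Gdf15 passed the expression filter through the NMDA libraries, since elsewhere they reached at most 0.542 and 0.783 CPM. That these genes were tested at all thus depended on the group where they are high. The median log2 change of all tested genes was 0.26 for NMDA against young and 0.04 for NMDA against aged.

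**Figure D1:**
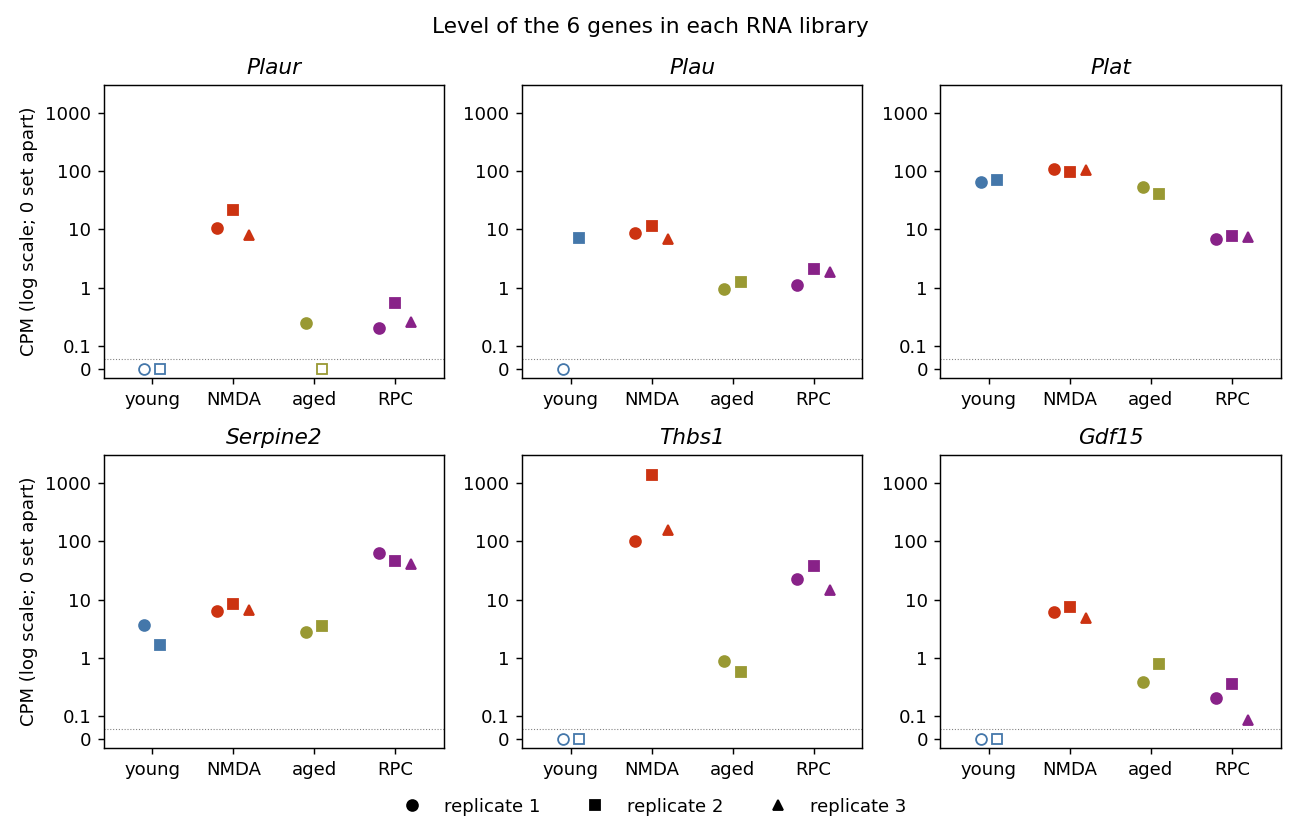
CPM of each of the 6 genes in each of the 10 RNA libraries, on a log axis with 0 set apart below the dotted line; each symbol is 1 library and open symbols are libraries at 0. Plaur, Thbs1 and Gdf15 are at 0 in both young libraries and highest in the 3 NMDA libraries, Plat falls from NMDA through young and aged cells to RPCs, and Serpine2 is highest in RPCs.

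Of the activators, Plat was the more evenly measured gene. It lay at 64.5 and 69.8 CPM in young cells, 108, 97.4 and 103 CPM after NMDA, 53.6 and 40.2 CPM in aged cells, and 6.96, 7.68 and 7.34 CPM in RPCs. The groups did not overlap, in the order NMDA, young, aged, RPC. The log2 change was 0.72 ± 0.14 (SE) for NMDA against young (adjusted p = 0.00334) and 1.05 ± 0.14 for NMDA against aged (adjusted p = 0.00157). In RPCs Plat was lower than in young cells by a log2 change of -3.33 ± 0.14 (adjusted p = 3.55e-07), and 1 of the 6 genes was called lower there, where 24.9% of all tested genes were. Aged and young cells were neighbours without a call (log2 -0.33 ± 0.15, adjusted p = 0.145), although upper-quartile scaling (adjusted p = 0.0386) and leaving out aged replicate 1 (adjusted p = 0.0442) gave one.

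Plau, the urokinase gene, lay at 0 and 7.09 CPM in the young libraries, 8.57, 11.2 and 6.96 CPM after NMDA, 0.932 and 1.23 CPM in aged cells, and 1.10, 2.08 and 1.84 CPM in RPCs. The NMDA libraries were above every aged and RPC library, but the second young library fell among them. No comparison of Plau passed the test. The log2 change was 1.47 ± 1.34 for NMDA against young (adjusted p = 0.407), 2.95 ± 1.44 against aged (adjusted p = 0.192) and 2.66 ± 1.22 against RPC (adjusted p = 0.0918). Fitting only the compared groups turned the last 2 into calls (adjusted p = 0.00234 and 0.00017), and leaving out young replicate 2 turned the first into one (adjusted p = 5.75e-05). The direction for aged and RPC against young also rests on that library: the log2 change was -1.49 and -1.19 with both young libraries and 7.50 and 7.79 without it. Without young replicate 1 it was -2.49 and -2.20, and both were then called.

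Plaur, the receptor that holds urokinase at the cell surface, was at 0 in both young libraries. After NMDA it reached 10.4, 21.6 and 7.90 CPM, from 692 counts in all, while aged cells held 0.247 and 0 CPM and RPCs 0.207, 0.542 and 0.262 CPM. Every NMDA library was above every other library, and aged and RPC libraries overlapped. Measured against 3 counts over the pooled young libraries, the NMDA level was at least 113-fold higher than in young cells (adjusted p = 0.00324), and at least 76.7-fold without NMDA replicate 2. Against aged cells, whose level rests on 9 counts in replicate 1, the log2 change was 6.58 ± 1.33 (adjusted p = 0.0127). It was 5.63 without aged replicate 2 (adjusted p = 0.0398), and without aged replicate 1 the aged group is at 0 and the call held (adjusted p = 0.0146). Against RPCs it was 5.54 ± 1.07 (adjusted p = 0.00291). In that comparison 4 of the 6 genes were called higher and 1 lower, where 31.9% and 25.8% of all tested genes were.

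Serpine2, the inhibitor, had a different order of groups. It lay at 63.1, 45.4 and 41.2 CPM in RPCs, 6.24, 8.25 and 6.51 CPM after NMDA, 2.82 and 3.55 CPM in aged cells, and 3.68 and 1.67 CPM in young cells. RPCs stood above all Müller libraries and NMDA above the uninjured ones, while aged and young cells overlapped. RPCs exceeded young cells by a log2 change of 4.07 ± 0.43 (adjusted p = 5.72e-05) and NMDA cells by 2.60 (log2 change NMDA against RPC -2.60 ± 0.33, adjusted p = 0.000182). The rise after NMDA was 1.47 ± 0.39 against young cells (adjusted p = 0.0141) and lost its call when only these groups were fitted (adjusted p = 0.144). Against aged cells the change of 1.05 ± 0.37 was not called (adjusted p = 0.0795), but was with DESeq2 (adjusted p = 0.0176) and in the fit of those groups alone (adjusted p = 0.0272).

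Thbs1, the thrombospondin, was at 0 in both young libraries and rose to 99.8, 1387 and 153 CPM after NMDA. Aged cells held 0.877 and 0.572 CPM, and RPCs 22.0, 37.3 and 14.5 CPM. The groups did not overlap, in the order NMDA, RPC, aged, young, but the second NMDA library was 13.9 times the first. The NMDA level was at least 4753-fold higher than in young cells (adjusted p = 0.00278) and at least 1083-fold without NMDA replicate 2 (adjusted p = 0.000231). Against RPCs the log2 change was 4.72 ± 1.07 (adjusted p = 0.00646), and 2.62 without NMDA replicate 2 (adjusted p = 0.00211). Against aged cells it was 9.46 ± 1.66 (adjusted p = 0.0074), and 7.35 without NMDA replicate 2. That call was lost without aged replicate 1 (adjusted p = 0.0741) or aged replicate 2 (adjusted p = 0.0852), each of which leaves 1 aged library.

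Thbs1 was also detected in the RPC libraries, which are bulk samples. It was highest in RPC replicate 2, as were 41.6% of all tested genes above 0 in all 3. Of 11 endothelial and mural cell markers, Pecam1 (1.31, 5.24 and 1.05 CPM), Cdh5, Cldn5, Tek, Vwf, Pdgfrb, Acta2 and Cspg4 were too. Kdr, Flt1 and Rgs5 (0, 0.0904 and 0.437 CPM) were not. The sum of the pigment epithelium and lens markers was 40.6, 111 and 34.3 CPM in the RPC libraries. The part of cells other than progenitors in the RPC level of Thbs1 was not tested. Its RPC level was at least 205-fold higher than in young cells (adjusted p = 0.0154), a call that was lost without young replicate 1 (adjusted p = 0.0634). Against aged cells it was higher by 4.74 ± 1.43 on the log2 scale (adjusted p = 0.0238). This call was lost without aged replicate 1 (adjusted p = 0.107), aged replicate 2 (adjusted p = 0.128) or RPC replicate 2 (adjusted p = 0.0549). Over the 6 genes, 3 were called higher in RPCs than in young cells, where 35.9% of all tested genes were. Against aged cells 2 were higher and 1 lower in RPCs, where 26.3% and 29% of all tested genes were.

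Gdf15, the stress cytokine, was also at 0 in both young libraries. After NMDA it lay at 6.11, 7.52 and 4.84 CPM, in aged cells at 0.384 and 0.783 CPM, and in RPCs at 0.207, 0.361 and 0.0874 CPM. Its 3 NMDA libraries, with a ratio of the highest to the lowest of 1.55, lay above every other library. The NMDA level was at least 52.0-fold higher than in young cells (adjusted p = 0.000602), and 3.31 ± 0.71 higher than in aged cells on the log2 scale (adjusted p = 0.0159). The second call was lost without aged replicate 1 (adjusted p = 0.122) or replicate 2 (adjusted p = 0.0768). Gdf15 was the single one of the 6 called higher in aged than in young cells, at least 4.85-fold (adjusted p = 0.0077), where 21.1% of all tested genes were called higher and 5.85% lower. That call was lost when the 2 groups were fitted alone. Gdf15 reached at most 0.783 CPM in aged cells and RPCs, so its bounds for these groups rest on the young zeros as listed. The low RPC level, from 8 counts in all, was called at least 1.83-fold higher than in young cells (adjusted p = 0.0143), but not without young replicate 1 (adjusted p = 0.0794).

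**Figure D2:**
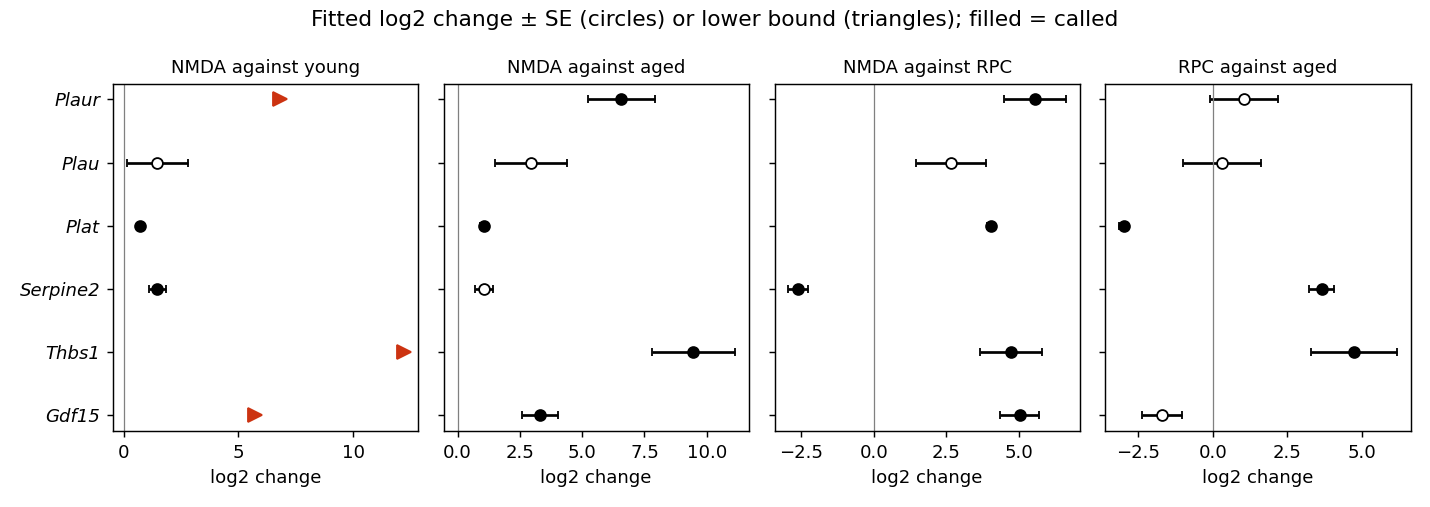
Fitted log2 change of each gene with its SE (circles) in 4 comparisons, or, where both young libraries are at 0, the lower bound as log2 of the fold over 3 pooled counts (triangles pointing to higher values); filled symbols passed an adjusted p under 0.05. Plau is open in every panel, Plat is called in all 4, and Serpine2 lies left of 0 against RPCs.

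RefSeq promoter sequences (GRCm38.p6, 250 bases before to 50 after a start site) were listed for 3 of the 6 genes, the receptor, the stress cytokine and the inhibitor. They are shown because the first 2 genes were highest after NMDA and the third in RPCs. Capitals mark exact matches, on either strand, to 7 motifs: the AP-1 element TGANTCA, the cAMP response element TGACGTCA, the C/EBP-ATF element TTGCATCA, the GC box GGGCGG, the TATA box TATAAA, the STAT element TTCNNNGAA and the TEAD element GGAATG. Neighbouring GC boxes can share bases.
Plaur, chr7:24462233-24462532, + strand: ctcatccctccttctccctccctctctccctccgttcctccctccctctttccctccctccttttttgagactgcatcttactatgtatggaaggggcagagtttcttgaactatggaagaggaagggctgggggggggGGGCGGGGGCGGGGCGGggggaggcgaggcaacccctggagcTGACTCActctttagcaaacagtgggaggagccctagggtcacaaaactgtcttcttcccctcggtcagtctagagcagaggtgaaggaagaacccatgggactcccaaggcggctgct
Gdf15, chr8:70632046-70632345, - strand: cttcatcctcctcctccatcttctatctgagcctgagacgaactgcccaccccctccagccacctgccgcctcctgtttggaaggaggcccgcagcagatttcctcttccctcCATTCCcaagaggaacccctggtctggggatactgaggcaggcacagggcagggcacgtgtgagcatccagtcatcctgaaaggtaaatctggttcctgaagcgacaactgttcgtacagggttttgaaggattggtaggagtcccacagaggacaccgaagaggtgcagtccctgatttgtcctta
Serpine2, chr1:79858616-79858915, - strand: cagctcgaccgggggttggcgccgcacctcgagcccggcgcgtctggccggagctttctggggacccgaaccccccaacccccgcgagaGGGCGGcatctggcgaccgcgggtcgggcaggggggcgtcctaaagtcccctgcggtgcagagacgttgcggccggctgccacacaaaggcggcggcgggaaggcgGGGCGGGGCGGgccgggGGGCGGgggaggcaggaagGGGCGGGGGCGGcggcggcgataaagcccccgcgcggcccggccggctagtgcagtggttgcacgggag

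The Plaur window holds 1 AP-1 element, 69 to 63 bases before the start site, and 3 GC boxes between 111 and 95 bases before it. Of all 32851 promoters of this length, 7.81% hold the AP-1 letters and 35.7% a GC box. The Serpine2 window holds 6 GC boxes and is the most CpG-rich of the 3, with 41 CpG dinucleotides against 7 in each of the others shown. The Gdf15 window holds 1 TEAD match on the opposite strand, which 14.7% of promoters have. A second listed start of Gdf15, chr8:70632407-70632706, matched none of the motifs. This second start lies nearer the high-coordinate end of the listed gene (chr8:70629393-70632470) than the start shown, 70632095. The Plaur start shown, 24462483, lies inside the listed gene (chr7:24460937-24475970). The cAMP, C/EBP-ATF, TATA and STAT letters, found in 1.79%, 0.895%, 13.6% and 8.30% of promoters, were in none of these windows.

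The other genes of plasminogen activation were read from a list that includes 4 of the 6 genes. Of its 22 genes, 17 were tested, and 9 were called higher and none lower than in young cells, with a median log2 change of 1.47 (all tested genes 0.26, with 30.6% higher and 14.3% lower). Against aged cells, 5 of the 17 were higher and none lower, with a median of 1.05 (all tested genes 0.04, with 10.5% higher and 9.8% lower). Without NMDA replicate 2 the counts were 6 and 4, and without young replicate 2 the first became 11 higher and 3 lower. The 9 comprised Plat, Plaur and Serpine2 and 6 others.

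The annexin A2 complex, a cell-surface docking site for plasminogen and tissue-type activator, was among them. Anxa2 lay at 0 in both young libraries, at 83.4, 152 and 73.5 CPM after NMDA, and at 1.23 and 0.843 CPM in aged cells (adjusted p = 0.000102 against young and 0.00068 against aged). Its partner S100a10 rose by 2.00 ± 0.65 on the log2 scale over young cells (adjusted p = 0.0335) and by 2.73 ± 0.67 over aged cells (adjusted p = 0.0226). Plgrkt, a transmembrane plasminogen receptor, rose by 0.83 ± 0.22 against young cells (adjusted p = 0.0139) and showed a change of -0.10 against aged cells (adjusted p = 0.794). Eno1, a glycolytic enzyme that also binds plasminogen, did not pass the test (log2 change -0.46 ± 0.17 against young, adjusted p = 0.0594).

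Among the inhibitors, Serping1, which blocks plasma kallikrein and the first complement proteases, rose by 2.46 ± 0.21 over young cells (adjusted p = 6.25e-05) and by 1.69 over aged cells (adjusted p = 0.000979). Serpini1, the neuronal inhibitor of tissue-type activator, was higher than in young cells (log2 change 3.71 ± 1.06, adjusted p = 0.0202) and not called against aged cells (adjusted p = 0.732). Serpinb2, an inhibitor of urokinase, was 4.03, 1.01 and 0.223 CPM after NMDA and 0 in young cells (adjusted p = 0.0396), and was not called against aged cells (adjusted p = 0.0637).

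The substrate itself was hardly seen. Plg, the plasminogen gene, had no count in the young and NMDA libraries and reached 2.26 CPM in RPC replicate 2. The endocytic receptors that clear activator-inhibitor complexes were not called after NMDA: Lrp1 changed by -0.27 ± 0.11 (adjusted p = 0.0851) and Vldlr by -0.28 ± 0.26 (adjusted p = 0.416) on the log2 scale against young cells. Vtn, which encodes the matrix protein vitronectin, was not called either (log2 change -0.50 ± 0.36, adjusted p = 0.286). In RPCs 3 of the 17 genes were higher and 8 lower than in young cells, where 35.9% and 24.9% of all tested genes were. The higher ones included Mrc2, a collagen receptor that partners the urokinase receptor, at 90.7, 111 and 98.2 CPM against 0 and 3.25 CPM.

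Of 20 genes of coagulation and thrombin signalling, 15 were tested, and 9 were called higher and none lower after NMDA than in young cells (8 without NMDA replicate 2), beside 30.6% and 14.3% of all tested genes. Against aged cells 6 were higher and none lower (5 without that library), beside 10.5% and 9.8% of all. The median log2 change was 1.85 against young cells with genes at 0 there set to their bound, and 0.70 against aged cells. F3, which encodes tissue factor, the trigger of clotting, lay at 77.1, 48.9 and 67.4 CPM after NMDA and 115 and 63.7 CPM in young cells and was not called (adjusted p = 0.399). The factor genes F7, F10 and F13a1 had no count in young cells. After NMDA, F7 lay at 2.65, 21.3 and 5.84 CPM, F10 at 1.70, 44.5 and 4.79 CPM, and F13a1 at 10.9, 216 and 19.2 CPM. All 3 were also called against aged cells (adjusted p = 0.00635, 0.0443 and 0.0164).

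Receptors of this system differed in size and evenness. F2r, the main thrombin receptor, was not called after NMDA (log2 change 0.74 ± 0.50, adjusted p = 0.256) and was higher in RPCs than in young cells by 2.66 ± 0.53 (adjusted p = 0.00252). F2rl1, a receptor cut by trypsin-like proteases, lay at 1.70, 2.30 and 3.12 CPM after NMDA and 0.219 and 0.391 CPM in aged cells (adjusted p = 0.0172). Procr, the endothelial protein C receptor, lay at 1.45, 2.19 and 2.00 CPM after NMDA and at 0.110 and 0 CPM in aged cells (adjusted p = 0.0218). Thbd, the thrombomodulin gene, spread widely after NMDA, at 91.6, 14.4 and 2.11 CPM, highest in the first library. Pros1, a cofactor of protein C and ligand of phagocytic receptors, rose by 0.76 ± 0.09 over young (adjusted p = 0.00034) and by 0.70 ± 0.09 over aged cells (adjusted p = 0.00131).

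Around Thbs1, 19 of 20 listed thrombospondins, receptors and TGF-beta genes were tested, and 11 were higher and 4 lower after NMDA than in young cells, with a median log2 change of 1.20 with genes at 0 set to their bound (all tested genes: 30.6% higher, 14.3% lower). Against aged cells 4 were higher and 3 lower, with a median of 0.12 (all tested genes: 10.5% and 9.8%). Thbs2 was at 0 in young cells and at 4.79, 2.19 and 2.84 CPM after NMDA, but aged cells held 3.34 and 2.92 CPM (adjusted p = 0.991 for NMDA against aged). Thbs3 fell by 1.04 on the log2 scale against young (adjusted p = 0.00543) and by 0.83 against aged cells (adjusted p = 0.0287) and was higher in RPCs than in young cells (adjusted p = 0.000244).

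Among thrombospondin receptors, Sdc4, a heparan sulphate proteoglycan, rose by 1.45 ± 0.13 over young (adjusted p = 7.14e-05) and 1.08 ± 0.13 over aged cells (adjusted p = 0.000859). Itgav, the alpha chain of vitronectin-type integrins, was 57.0 and 107 CPM in young, 887, 798 and 891 CPM in NMDA and 771 and 806 CPM in aged cells. The rise over young cells was called (log2 3.50 ± 0.25, adjusted p = 2.04e-05), and NMDA and aged cells overlapped (adjusted p = 0.927). Itgb1 rose over both young (log2 1.00 ± 0.16, adjusted p = 0.00155) and aged cells (adjusted p = 0.00798). Ltbp1, which tethers latent TGF-beta to matrix, followed the pattern of Itgav, with log2 changes of 3.23 against young (adjusted p = 0.00192) and 0.25 against aged cells (adjusted p = 0.772). The latent cytokine gene Tgfb2 rose by 0.63 ± 0.12 over young cells (adjusted p = 0.00378) and was not called against aged cells (adjusted p = 0.171). Other genes of the list fell: Cacna2d1, Itgb5 and Tgfb3 were called lower than in young cells, and Cd36 and Cacna2d1 lower than in aged cells. Cd36 lay at 8.13, 13.2 and 12.6 CPM after NMDA and 41.7 and 59.9 CPM in aged cells. In young cells it lay at 6.18 and 4.24 CPM, and the rise over these was called.

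Of the Gdf15 receptor and stress-factor list, 12 of 13 genes were tested, and 6 were higher and 1 lower after NMDA than in young cells, with a median log2 change of 0.93 (all tested genes: 30.6% higher, 14.3% lower). Against aged cells 3 were higher and none lower, with a median of 0.65 (all tested genes: 10.5% and 9.8%). Gfral, the Gdf15 receptor of the hindbrain, had no count in any library. Its co-receptor Ret lay at 1.89, 2.86 and 2.17 CPM after NMDA, 1.59 and 1.45 CPM in aged cells, and 31.96, 12.9 and 23.5 CPM in RPCs. Trp53, whose product induces Gdf15, rose by 1.18 ± 0.13 over young (adjusted p = 0.00021) and 1.19 ± 0.13 over aged cells (adjusted p = 0.000602). Its target Cdkn1a was called against aged cells (log2 change 3.73 ± 0.995, adjusted p = 0.031) and not against young cells (adjusted p = 0.147). The stress factors Atf3, Atf4 and Ddit3 were not called against young cells, with adjusted p of 0.288, 0.305 and 0.0545. Egr1, an immediate early factor, fell by 1.03 on the log2 scale against young cells (adjusted p = 0.0383) and was not called against aged cells (adjusted p = 0.36).

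Of 29 listed injury-secreted factors found in the table, 27 were tested, and 11 were higher and 5 lower after NMDA than in young cells, with a median log2 change of 1.82, where 30.6% and 14.3% of all tested genes were. Against aged cells 8 were higher and 3 lower, with a median of 1.38, where 10.5% and 9.8% of all were. Cntf, a neurotrophic cytokine, lay at 29.7, 32.9 and 29.5 CPM after NMDA, 0 in young and 0.192 and 1.02 CPM in aged cells (adjusted p = 0.00211 against aged). The protease inhibitor gene Timp1 lay at 49.7, 61.1 and 29.7 CPM after NMDA and 1.56 and 0.211 CPM in aged cells (adjusted p = 0.00392). Tnc, a matrix glycoprotein of injured tissue, lay at 70.3, 33.4 and 26.4 CPM and 1.398 and 3.43 CPM in the same groups (adjusted p = 0.00482). The growth factor gene Ptn fell by 1.18 on the log2 scale against young (adjusted p = 0.000569) and by 1.12 against aged cells (adjusted p = 0.00198). All 5 lists were drawn up with earlier results on these samples known, and the plasminogen, thrombospondin and Gdf15 lists hold some of the 6 genes.

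The NMDA libraries did not agree equally well on the 6 genes. The ratio of the highest to the lowest of the 3 was 1.11 for Plat, 1.32 for Serpine2, 1.55 for Gdf15, 1.61 for Plau, 2.73 for Plaur and 13.9 for Thbs1. Over 18117 tested genes above 0 in all 3, the median of this ratio was 1.35, and 3.04% reached 8 or more. Replicate 2 was the highest library for 5 of the 6 genes, Plat being the exception, and for 38.2% of all those genes.

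Markers of some other cell types were highest in replicate 2. The sum of the 16 microglia and macrophage markers was 443, 4116 and 859 CPM in the NMDA replicates. It was 30.7 and 157 CPM in young cells, where Aif1, Trem2 and Ptprc were at 0, and 142 and 159 CPM in aged cells. All 16 were highest in replicate 2, with Lyz2 at 140, 1946 and 386 CPM and Ptprc, the pan-leukocyte CD45 gene, at 8.76, 111 and 15.03 CPM. Of the 16, 12 were called higher than in young cells and 7 higher than in aged cells, and none lower. The microglial genes P2ry12 and Tmem119 were among the 9 not called against aged cells (adjusted p = 0.592 and 0.476). The 11 neutrophil and monocyte markers summed to 12.2, 242 and 28.5 CPM, with Mpo at 0 in all 3 libraries. They summed to 0 and 2.86 CPM in young and 3.10 and 3.40 CPM in aged cells. The 11 pigment epithelium and lens markers, which include crystallin genes, summed to 40.8, 1090 and 61.1 CPM, against 0 and 20.3 CPM in young and 49.3 and 6.83 CPM in aged cells. In replicate 2 this sum was mostly crystallins, with Cryaa at 554 and Crybb2 at 334 CPM. The pigment genes Rpe65, Tyrp1 and Pmel lay at 0.337, 0.449 and 1.23 CPM there. The photoreceptor sum, at 7590, 10844 and 12170 CPM, was highest in replicate 3. The vascular sum, at 4175, 2895 and 3773 CPM, was mostly Kdr, at 3295, 2252 and 2946 CPM. Kdr was also high in young cells (2779 and 2635 CPM). Of the 11 vascular markers, 7 were highest in replicate 2, among them Pecam1 at 1.51, 11.2 and 2.45 CPM and Acta2 at 1.39, 16.0 and 2.62 CPM.

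Set side by side, replicate 2 exceeded replicate 1 by 13.9 times for Thbs1, 9.28 times for the microglia sum, 19.8 times for the neutrophil and monocyte sum and 26.7 times for the pigment and lens sum. The same ratio was 8.05 for F7, 26.1 for F10, 19.8 for F13a1, 8.61 for Spp1 and 10.7 for Osm. It was 2.08 for Plaur, 1.31 for Plau, 1.32 for Serpine2, 1.23 for Gdf15 and 0.901 for Plat. The sum of the 16 Müller markers went the other way, at 29600, 22743 and 29972 CPM, against 70486.5 and 60325 CPM in young and 57575 and 57987 CPM in aged cells. Of these markers, 6 were called lower than in young cells, 2 higher (Vim and Crym) and 8 not, and Glul, the glutamine synthetase gene, went from 33663 and 26680 CPM in young cells to 4530, 2610 and 4586 CPM. Without replicate 2 the calls of all 5 higher genes against young cells and of all 4 against aged cells remained. Replicates 1 and 3 also had microglia sums (443 and 859 CPM) above those of young (30.7 and 157 CPM) and aged cells (142 and 159 CPM). The part of these other cells in the levels of the 6 genes was not tested, with or without replicate 2.

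**Figure D3:**
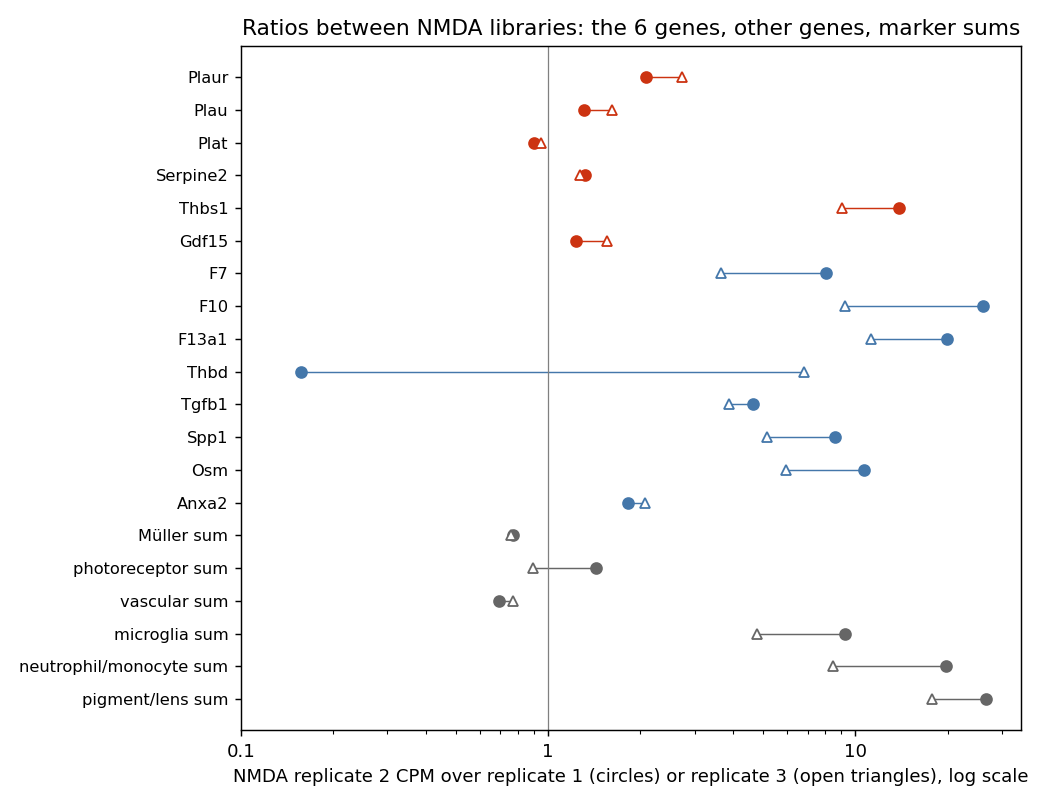
Ratio of NMDA replicate 2 to replicate 1 (circles) and to replicate 3 (open triangles) for the 6 genes (red), 8 other genes of the lists picked to show the range (blue) and the sums of 6 marker lists (grey), on a log axis. Thbs1, F10, F13a1 and the microglia, neutrophil and pigment/lens sums lie far right of 1, whereas Plat and the Müller sum lie at or left of 1.

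The genes whose log2 CPM followed each of the 6 most closely over the 10 libraries were read from 10990 genes whose mean was 8 CPM or more. For Plaur they included the mitochondrial ND4 and Atp5j2, with Pearson's r of 0.97 each, and for Plau they were Commd4 (r = 0.98), Ndufs8 (0.96) and Tgfb1 (0.95). Plat was most like Crym, Myof and Zcchc24 (r = 1.00 each, rounded), with Crym at 1563, 1356 and 1477 CPM after NMDA and 0.826 to 1.31 CPM in RPCs. Serpine2 was most like Prmt1, Tfdp1 and Hnrnpc (r = 0.99 each), which were all highest in RPCs. Thbs1 was most like Emp1 (r = 0.99), Myo1f and Tomm6 (r = 0.98 each), and Gdf15 like Lgals1, Lyn and Ecm1 (r = 0.98 each).

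Several of these neighbours were highest in NMDA replicate 2. Tgfb1 lay at 10.2, 47.6 and 12.2 CPM, Emp1 at 23.9, 77.2 and 23.5 CPM, and Myo1f at 7.81, 86.6 and 18.3 CPM. Lyn lay at 29.998, 110 and 32.5 CPM and Ecm1 at 20.4, 139 and 31.4 CPM. Lgals1 lay at 99.1, 122 and 70.6 CPM. Among the 6 genes themselves, r was 0.91 for Plaur with Gdf15, 0.89 for Plaur with Thbs1, 0.79 for Thbs1 with Gdf15 and -0.83 for Plat with Serpine2. These values describe 10 libraries of 4 groups that share group means and library depth.

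DNA methylation was read at positions covered in all 12 RRBS libraries with at least 10 reads each, and tested in windows of 1000 bases either side of a start site or, where no start was listed, of both gene ends. Of the 6 genes, 4 had a window with at least 5 positions, and none was called at an adjusted p under 0.05 and a difference of at least 10 points, in NMDA, aged or RPC cells against young cells. Among all 12491 windows, 1.79%, 0.785% and 3.51% were called in those comparisons. In data simulated for NMDA against young, changes were placed only in windows of intermediate methylation. At an adjusted p under 0.05, without the 10-point minimum, 10% of changes of 15 points and 77% of 30 points were recovered. These values do not cover windows with little methylation, such as 3 of the 4, where the count of 0 follows from the 10-point minimum. A count of 0 does not show that levels were alike. Without the 10-point minimum, 3 of the 4 windows had an adjusted p under 0.05 in each comparison, all lower than in young cells. By that rule 74% of all windows were lower in NMDA, 83.7% in aged and 64.2% in RPC cells, so these 3 windows did as most windows did.

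The windows of Plau, Plat and Serpine2 had little methylation in every group. At the low-coordinate end of Plau (chr14:20836662, 35 positions), young libraries read 4.50%, 5.25% and 3.58%, NMDA libraries 1.09%, 1.06% and 0.856%, aged libraries 0.723%, 0.488% and 0.391%, and RPCs 0.592%, 1.70% and 0.931%. At the low end of Plat (chr8:22757722, 21 positions), the means were 5.74% ± 0.82, 1.21% ± 0.62, 0.550% ± 0.139 and 2.47% ± 1.31 (SD, n = 3) in the same order of groups. Past the Serpine2 start, 32 positions read 3.92% ± 0.48, 1.31% ± 0.26, 0.866% ± 0.353 and 1.01% ± 0.71.

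The young libraries were higher at unmethylated sequence throughout. Mitochondrial DNA, read at 54 positions, was scored 7.62% to 9.94% methylated in young, 1.57% to 2.02% in NMDA, 0.731% to 0.956% in aged and 2.25% to 5.73% in RPC libraries. The 10688 windows with a mean under 5% had medians of 2.82% to 3.78% in young libraries and 0.355% to 1.98% in the others. The part of this offset in the differences of 2.74 to 5.18 points at these 3 windows was not tested.

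The window of Gdf15 (6 positions, chr8:70632095) was intermediate, at 21.8% ± 0.9 in young, 27.7% ± 3.3 in NMDA, 24.3% ± 1.0 in aged and 23.6% ± 5.6 in RPC libraries (SD, n = 3). None of these differences passed the test, with adjusted p of 0.198, 0.513 and 0.584. Its neighbouring tiles toward the low-coordinate end of the gene, with 28 and 14 positions, read at most 3.71% in any library. Neither Plaur nor Thbs1 had a window with enough positions.

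Fixed 1 kb tiles over all autosomes were added after the positions in Thbs1 had been seen, and 9 of 36865 tested tiles lay at the 6 genes. Of these 9, 1 was called in NMDA against young cells, where 7.86% of all tiles were called higher, and the same 1 in RPC against young cells, where 10.6% were. None was called in aged against young cells, where 1.41% of all tiles were called in either direction. It lies within Thbs1 (chr2:118113001-118114000), with 8 positions at 5 CpG sites between 1327 and 1517 bases from the low-coordinate end of the gene. Young libraries read 21.9%, 19.1% and 17.8% there, aged libraries 19.7%, 27.4% and 18.5%, NMDA libraries 45.3%, 48.0% and 62.0%, and RPCs 87.2%, 88.3% and 82.9%. NMDA cells were thus between uninjured Müller cells and RPCs, without overlap with either.

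The pooled difference from young cells in this tile was 30.8 points in NMDA (adjusted p = 0.000115), 66.7 points in RPC (adjusted p = 8.14e-10) and 2.34 points in aged cells (adjusted p = 0.607). It stayed between 27.1 and 34.3 points for NMDA when each library was left out in turn. At all 8 positions every NMDA library was above every young library, and at 6 every RPC library was above every NMDA library. Each position had 32 to 272 reads per library. The RRBS libraries are separate samples from the RNA libraries, and the part of other cell types in these percents was not tested.

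The other Thbs1 tile, before the low-coordinate end (chr2:118110001-118111000, 7 positions), read 13.04% ± 5.2 in young, 5.28% ± 1.88 in NMDA, 7.35% ± 2.68 in aged and 6.18% ± 3.95 in RPC libraries, and no comparison was called (adjusted p = 0.106, 0.320 and 0.171). Between the tiles, 3 positions 267 to 351 bases into the gene read 0% to 17.9% in all libraries. At Plaur, 12 positions near the high-coordinate end (chr7:24475001-24476000) read 7.30% ± 3.26 in young, 12.1% ± 1.1 in NMDA, 8.41% ± 3.81 in aged and 16.0% ± 3.2 in RPC libraries. The difference of RPC from young cells, 8.40 points, had an adjusted p of 0.00558 and fell short of the 10-point minimum.

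**Figure D4:**
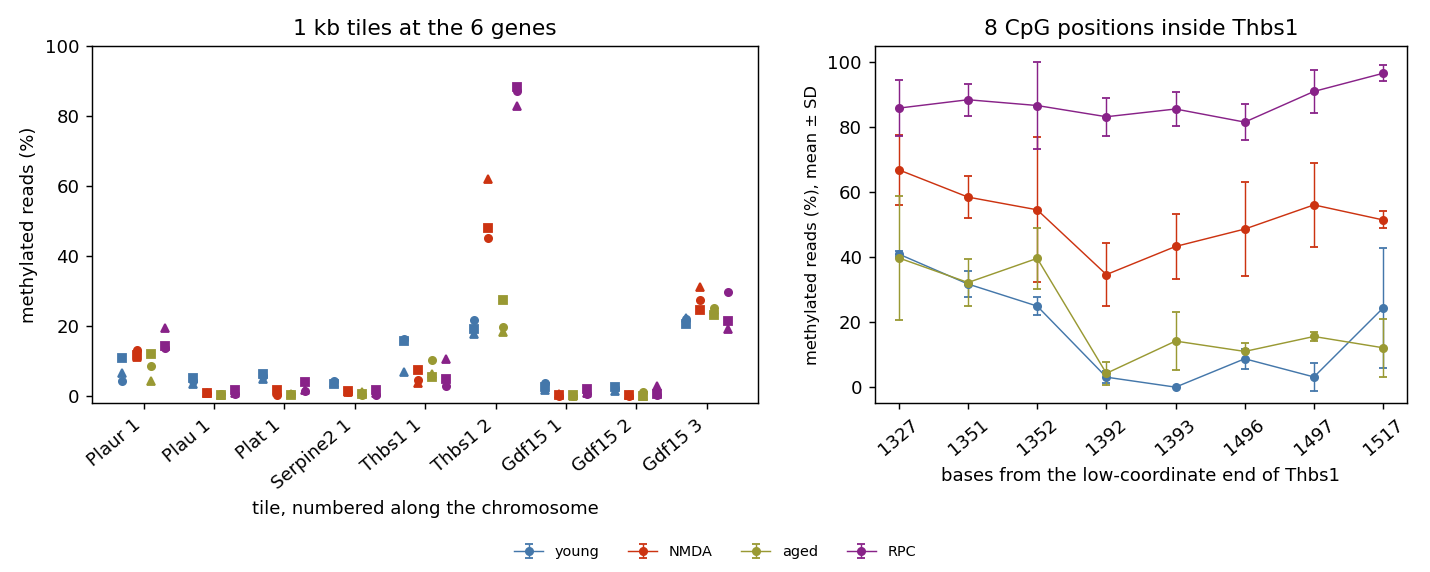
Left, percent of methylated reads in the 1 kb tiles at the 6 genes, where each symbol is 1 RRBS library (circle, square and triangle for replicates 1, 2 and 3) coloured by group as in the legend. Right, the mean ± SD of 3 libraries at 8 CpG positions in the second Thbs1 tile, evenly spaced and labelled by distance from the gene's low-coordinate end; NMDA lies between young or aged cells and RPCs at each.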

How the data were processed

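Per the labels, RNA and genomic DNA of sorted Müller cells and RPCs were sequenced. The deposited RNA values are read counts per gene symbol, made by the authors; the counting tool and its use of strand are not given in the sources used here. For RRBS, the authors' files hold, per the file headers, coverage and the percent of methylated reads per CpG position and strand. The submitters' processing notes name methylKit 1.4.0, Bismark 0.16.3, HISAT2 2.0.4 and Trim Galore 0.4.3, with the builds mm10 and GRCm38.

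Counts were fitted in R 4.3.3 with edgeR 4.0.16 (TMM, expression filter, all 10 libraries, group-only design, quasi-likelihood, Benjamini-Hochberg adjustment). Tests were checked on simulated data. Genes at 0 in young cells are bounded with 3 counts over the pooled libraries. Such bounds cover counting error only, and p-values measure the spread between these samples. The 1 kb tiles were added after seeing the data. RRBS windows and tiles were fitted with a quasi-binomial model whose dispersion was moderated with limma 3.58.1, on 743808 autosomal positions covered by a median of 52 to 109 reads. Percents of a window are methylated over all reads. Start sites came from RefSeq promoters (GRCm38.p6), otherwise both gene ends were used, since the tables give no strand.

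The 6 genes and all lists were chosen with earlier results of these data known. Named are the 6 genes, any gene of the plasminogen and coagulation lists, up to 6 per other list by smallest adjusted p in NMDA against young, defining markers, and the 3 genes most like each of the 6. Some genes that this rule covers are not reported here. Genes named beyond this (Thbs3, Cd36, Cacna2d1, Itgb5, Tgfb3, Tgfb2, Gfral, Cdkn1a, Atf3, Atf4, Ddit3, Egr1, Spp1 and Osm) were chosen after their values were seen. RNA alternatives were DESeq2 1.42.0, upper-quartile or RLE scaling, filtering at a mean of 5 CPM or not at all, the 2 groups alone, a replicate block, and each library left out. For RRBS they were at least 20 reads, 500 bases, no minimum difference, a replicate block and each library left out.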

Additional observations from a re-analysis of the deposited data

How the results depend on the processing

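For RNA, 60 of 72 counts of called genes stayed within 1.5 times of the main count under the alternatives. With a filter at 5 CPM, which leaves Plaur, Plau and Gdf15 untested, the count was 3 for NMDA against young, 2 for NMDA against aged, 3 for NMDA against RPC and 0 for aged against young. For aged against young it was 2 with upper-quartile scaling, 0 with the 2 groups alone and 2 with DESeq2. Leaving out each library gave 1 to 2 for aged against young and 2 to 4 for NMDA against aged. As libraries were left out, the log2 change of Plau ranged from -2.49 to 7.50 (aged against young) and from -2.20 to 7.79 (RPC against young), and that of Serpine2 from -0.035 to 1.14 (aged against young). Each turned sign without 1 young library, replicate 2. Plaur for aged against young has no value without aged replicate 1, since both groups are then at 0. Same-numbered RNA libraries did not deviate together (correlations of -0.06 to 0.08), and RRBS libraries had correlations of -0.16 to 0.11, so the numbers were not taken as pairs. With a replicate block, the counts were 5 for NMDA against young, 3 for NMDA against aged and 0 at the RRBS windows, and Plaur in NMDA against aged had an adjusted p of 0.0592. The RRBS window counts were 3 in each comparison without a minimum difference and 0 under every other alternative. The Thbs1 tile difference for aged against young ranged from -0.36 (without aged replicate 2) to 4.05 points as libraries were left out, and for RPC against young from 65.4 to 68.4. The number of libraries and the zeros of the young RNA libraries limit the bounds.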
